A study of Mus musculus with 68 samples.

Results

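The genes described here are the mouse zinc finger genes whose symbols run from Zfp9 with 2 further digits, a numbering used for rodent members of the family. They were chosen by symbol alone among the gene rows present in all 3 deposited count tables, without chromosomes 14, X and Y, which left 63 of 55335 gene rows. 1 further gene of this numbering lies on chromosome 14 and was not used. Total RNA of mouse embryonic stem cells was sequenced after removal of ribosomal RNA in 3 experiments, all in untreated E14JU cells of strain 129/Ola grown on gelatin in serum with LIF. The rescue experiment held the wild-type line WT#1, the mutant line MCM2-2A#2 and the line MCM2-R#2, in which the mutation of MCM2-2A#2 had been reverted, with 4 cultures of each. MCM2-2A carries alanine substitutions in the part of the replicative helicase subunit MCM2 that binds histones, which biases the recycling of parental histones toward the leading strand. The POLE4 experiment held WT#1 and 3 clones in which POLE4, a histone-binding subunit of the leading strand polymerase, had been knocked out, with 3 libraries of each. The clone experiment compared WT clones with MCM2-2A clones, each with 2 to 6 libraries prepared in batches labelled January, March and August. Each line is 1 clone, so a difference between lines of unlike genotype holds both the genotype and the clone.

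Most genes of this numbering encode KRAB zinc finger proteins. In this family an array of C2H2 fingers reads DNA, often a piece of a retrotransposon, and the KRAB domain at the other end recruits TRIM28 (KAP1), which brings the histone H3K9 methyltransferase SETDB1 and represses the site. The genes multiply by tandem duplication and lie in clusters of near-identical copies, many of them specific to rodents, and embryonic stem cells, in which retrotransposons are held down largely by H3K9 methylation, express many of them. The mouse clusters on distal chromosome 2 and distal chromosome 4 are known for repressing endogenous retroviruses in such cells.

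Of the 63 genes, 62 were annotated as protein coding and Zfp939 as a transcribed pseudogene. With neighbouring gene starts joined when at most 1 Mb apart, 43 fell into 5 groups and 20 were dispersed (mm10). The chromosome 4 group held 16 genes over 2.34 Mb, at chr4:145510759-147848366, of which 13 lie on the plus strand. The chromosome 2 group held 10 genes over 2.71 Mb, at chr2:175372436-178078476. The chromosome 17 group held 10 genes over 1.3 Mb, at chr17:21567008-22867134. Smaller groups of 4 and 3 genes lay on chromosome 7 (chr7:42579783-43192109) and chromosome 8 (chr8:69209038-69749970).

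Promoters of some chromosome 4 genes shared runs of sequence. RefSeq (GRCm38.p6) gave a promoter, from 250 bases before to 50 after a transcription start, for 53 of the 63 genes, and 61 promoters in all. The first 3 sequences are genes of the chromosome 4 group that were called among knockout clones, shown because they share sequence. Capitals mark the runs of 12 or more bases that all 3 hold, 74 bases in each. The fourth, Zfp933, lies at the edge of the same group and shares no such run with them. Capitals there mark a CACGTG. The fifth, Zfp951 on chromosome 5, is shown because it differed most between lines and was added after its values were seen. It is the first of the RefSeq starts of the gene, and capitals mark CTTCCGG, an ETS core read from the opposite strand. All are printed 5′ to 3′ on the strand of the gene.

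Zfp981, chr4:146514670-146514969, plus strand: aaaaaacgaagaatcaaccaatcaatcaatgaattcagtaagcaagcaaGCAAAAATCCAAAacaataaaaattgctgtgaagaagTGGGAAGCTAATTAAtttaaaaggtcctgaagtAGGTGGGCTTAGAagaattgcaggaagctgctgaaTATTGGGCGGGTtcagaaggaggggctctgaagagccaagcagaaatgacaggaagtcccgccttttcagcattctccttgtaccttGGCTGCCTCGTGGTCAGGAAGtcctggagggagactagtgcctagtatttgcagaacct
Zfp979, chr4:147642459-147642758, minus strand: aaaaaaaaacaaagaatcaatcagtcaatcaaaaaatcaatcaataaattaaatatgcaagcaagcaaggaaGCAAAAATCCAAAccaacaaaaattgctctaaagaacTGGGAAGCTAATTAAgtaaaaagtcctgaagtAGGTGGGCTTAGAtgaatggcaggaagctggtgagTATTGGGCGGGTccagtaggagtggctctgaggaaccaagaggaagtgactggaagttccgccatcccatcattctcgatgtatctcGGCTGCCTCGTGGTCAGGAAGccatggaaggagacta
Zfp980, chr4:145670447-145670746, plus strand: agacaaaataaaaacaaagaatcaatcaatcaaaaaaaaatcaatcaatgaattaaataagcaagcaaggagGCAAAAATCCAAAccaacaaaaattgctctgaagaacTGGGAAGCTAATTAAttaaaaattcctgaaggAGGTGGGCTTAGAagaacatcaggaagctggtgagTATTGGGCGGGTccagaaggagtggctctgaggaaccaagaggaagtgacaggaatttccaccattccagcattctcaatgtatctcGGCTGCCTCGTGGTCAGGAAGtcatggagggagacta
Zfp933, chr4:147848369-147848668, minus strand: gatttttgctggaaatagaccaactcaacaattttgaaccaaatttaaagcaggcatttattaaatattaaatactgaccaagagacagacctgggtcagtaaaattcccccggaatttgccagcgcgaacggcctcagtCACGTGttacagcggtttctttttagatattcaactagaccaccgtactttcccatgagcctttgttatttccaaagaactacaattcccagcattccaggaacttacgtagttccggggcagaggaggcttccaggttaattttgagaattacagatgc
Zfp951, chr5:104859978-104860277, minus strand: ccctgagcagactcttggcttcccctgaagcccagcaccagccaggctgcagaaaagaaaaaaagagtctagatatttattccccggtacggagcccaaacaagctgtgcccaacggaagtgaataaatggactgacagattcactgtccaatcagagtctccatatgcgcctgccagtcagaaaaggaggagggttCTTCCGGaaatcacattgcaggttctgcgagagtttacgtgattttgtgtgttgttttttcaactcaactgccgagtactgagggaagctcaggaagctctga

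Of the 289 runs of 12 bases in a promoter of 300, Zfp979 and Zfp980 shared 107, Zfp981 and Zfp980 shared 35 and Zfp981 and Zfp979 shared 32. At least 1 of the capital runs was found in 7 of the 10 chromosome 4 genes that have a RefSeq promoter. A set of 7 motifs was searched on both strands, none of which holds another. The core bound by ETS factors, CCGGAAG, stood in 18 of the 61 promoters (29.5%) and in 8.86% of all 32851 RefSeq promoters of this length. It was found in 6 of 9 promoters of the chromosome 2 group and in 0 of 12 of the chromosome 4 group. The E-box, CACGTG, stood in 7 promoters (11.5%, against 7.15% of all), of which 6 belonged to the chromosome 17 group. The TATA box, TATAAA, was in 0 of 61, against 13.6% of all promoters. The CREB site, TGACGTCA, was in 1 (1.64%, against 1.79%). The palindrome bound by NRF1 was in 0 of 61, against 0.971% of all, the CGCG element bound by ZBTB33 in 0, against 0.466%, and the motif of YY1 in 0, against 0.633%. The median promoter held 8 CpG dinucleotides, against 7 over all promoters, with medians of 4.5 in the chromosome 4 group and 10.5 in the chromosome 17 group. Copies within a group share sequence, so these promoters are not independent of each other.

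Library totals over gene and repeat rows ran from 18369196 to 26975105 counts in the POLE4 table, 23161127 to 35602583 in the rescue table and 27854706 to 67467849 in the clone table. All 10 markers of pluripotent stem cells were detected in every line of the rescue and POLE4 tables. Pole4 stood at 56.5 to 62.1 CPM (counts scaled to the library size with TMM factors) in WT#1 and at 2.88 to 8.24 in the knockout clones. The MCM2-2A change is a substitution, so the level of Mcm2 does not check it. Mcm2 was at 399 to 440 CPM in WT#1 of the rescue experiment, at 217 to 232 in MCM2-2A#2 and at 206 to 217 in MCM2-R#2. Markers of other cells also differed between lines of the POLE4 experiment. The summed level of 8 fibroblast markers was 80.5 to 81.9 CPM in WT#1, 72.9 to 91 in POLE4-KO#3, 10.6 to 12.6 in POLE4-KO#2 and 6.24 to 7.23 in POLE4-KO#1. 9 genes of the 2-cell-like state summed to 8.38 to 11.9 CPM in WT#1, 6.02 to 9.22 in POLE4-KO#1, 29.5 to 34.8 in POLE4-KO#2 and 40.7 to 52.5 in POLE4-KO#3. The part of these in the results on POLE4-KO clones was not tested.

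How much RNA is counted for these genes depended on the table. In WT#1, a line present in all 3 tables, the 16 members with 50% or more of their sequence in other genes had a median log2 ratio of 3.51 between the clone table and the rescue table (from -2.78 to 5.58, on CPM + 0.5). The median was 0.58 for the 20 members with 5 to 50% shared, 0.13 for the 27 with under 5%, and -0.13 over 15753 genes. The class under 5% ran from -0.33 to 2.41, with Zfp982 (4.85% shared) highest, at 16.8 CPM in the rescue table and 91.1 in the clone table. Sharing is the percent of 76-base runs in the exons of a gene that also stand in the exons of another gene, 76 bases being the shorter read length. Zfp980, with 55.6% shared, stood at 47.1 CPM in the rescue table and at 379 in the clone table. Zfp967, with 100% shared, was at 0 and at 23.4, and Zfp987, with 81.3% shared, at 15.7 and at 227. The POLE4 and rescue tables were closer, with medians of 0.00, 0.18 and 0.24 for the same 3 classes, from most to least shared. Zfp951, Zfp933, Zfp948, Zfp930, Zfp938, Zfp945, Zfp949 and Zfp958 shared no run of 76 bases with another gene. How reads with several equally good places were counted is not given in the sources used here, so levels are compared only within a table, and the values of copies that share most of their sequence cannot be assigned to 1 gene.

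**Figure D1:**
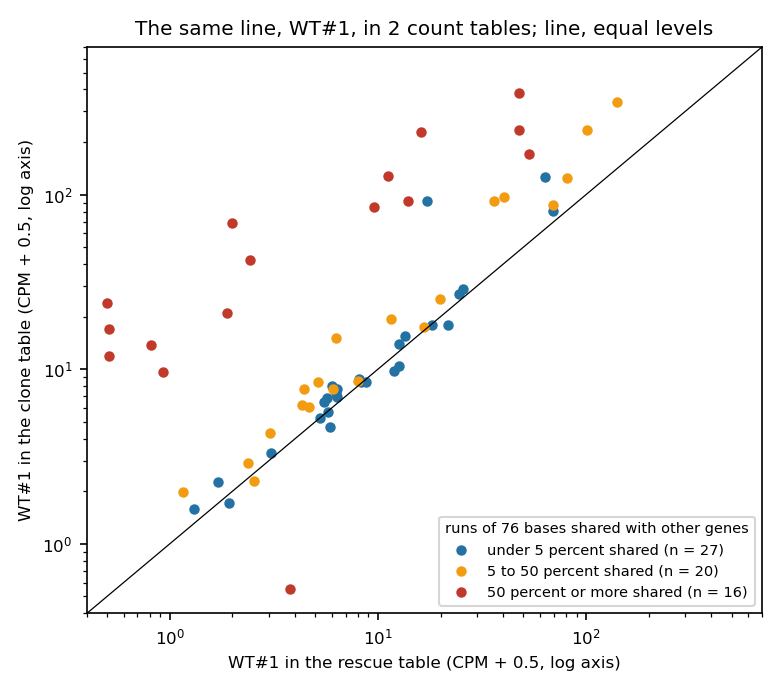
Level of each of the 63 genes in the line WT#1, in the rescue table (x) and in the clone table (y), as CPM + 0.5 on log axes, coloured by the percent of 76-base runs shared with other genes. The 27 genes with under 5% shared have a median log2 ratio of 0.13, with Zfp982 at 2.41 above the others of its class, and the 16 genes with 50% or more shared lie mostly far above the line of equal levels, at a median of 3.51.

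Among the members, genes of the chromosome 4 group were the most abundant per length. In WT#1 of the rescue experiment Zfp978 was at 40.9 CPM per kb of exon, Zfp990 at 40.1, Zfp981 at 31.8, Zfp985 at 21.9 and Zfp936, of the chromosome 7 group, at 21.1. Zfp978 has 66.1% of its sequence in other genes, so its level cannot be assigned to it alone. The highest member of each other group was lower, with Zfp930 on chromosome 8 at 4.79, Zfp971 on chromosome 2 at 3.52 and Zfp948 on chromosome 17 at 3.12 CPM per kb. Zfp932, which is known to bind and repress a class of endogenous retrovirus, was at 3.39 and Zfp951 at 2.75 CPM per kb. After the filter on low counts 60 of the 63 genes were tested in the rescue and POLE4 tables, without Zfp967, Zfp968 and Zfp969, and 62 in the clone table, without Zfp935, whose exons are covered in full by other genes of the same strand. A gene was called at an edgeR quasi-likelihood adjusted p below 0.01, with an absolute log2 fold change above 0.58.

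The first comparison asked what the mutation, and then its reversion, did to these genes in 1 line. Zfp951, on chromosome 5, was the only member called, and it was higher in the mutant line. Zfp951 stood at 11.4, 14.5, 13.4 and 12.8 CPM in WT#1 cultures 1 to 4, at 21.4, 22.3, 26.3 and 20.3 in MCM2-2A#2, and at 19.0, 17.2, 22.3 and 18.4 in MCM2-R#2. All cultures of MCM2-2A#2 and of MCM2-R#2 were above all cultures of WT#1, and the mutant and the reverted line overlapped. Zfp951 rose in MCM2-2A#2 by a log2 fold change of 0.79 (SE 0.10, edgeR adjusted p = 2.03e-04). In MCM2-R#2 the difference from WT#1 was 0.55 (edgeR adjusted p = 0.0183) and missed both limits. The reverted line differed from its mutant parent by -0.23 (edgeR adjusted p = 0.163). Of the 16 tested genes within 1 Mb of Zfp951, 2 were called between MCM2-2A#2 and WT#1, with a median of -0.21 and values from -0.78 to 0.64. Primitive endoderm markers moved in the same lines, with 9 of 10 called higher in MCM2-2A#2 than in WT#1 (median log2 fold change 1.42) and 9 of 10 lower in MCM2-R#2 than in MCM2-2A#2. Their summed level was 318 to 352 CPM in WT#1, 475 to 553 in MCM2-2A#2 and 319 to 352 in MCM2-R#2, and their part in the values of the members was not tested.

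1 of 60 members was called between MCM2-2A#2 and WT#1, where 2.76% of all genes were, and the median log2 fold change of members was -0.02, against -0.01 over all genes. The members next in order of p did not pass. Zfp931, of the chromosome 2 group, was at 4.06, 4.12, 3.98 and 4.57 CPM in WT#1, at 6.54, 4.58, 5.46 and 5.38 in MCM2-2A#2 and at 3.91, 3.46, 3.81 and 3.71 in MCM2-R#2. Its cultures in MCM2-2A#2 were all above those of both other lines, and the log2 fold change was 0.39 against WT#1 (edgeR adjusted p = 0.0322). From MCM2-2A#2 to MCM2-R#2 it was -0.56 (SE 0.11, edgeR adjusted p = 0.00971), just inside the limit of 0.58. Zfp938 was at 4.41 to 5.26 CPM in WT#1 and 3.79 to 3.95 in MCM2-2A#2, without overlap (log2 fold change -0.31, edgeR adjusted p = 0.0481), and at 4.27 to 5.06 in MCM2-R#2. Zfp992 (-0.21), Zfp980 (0.21) and Zfp989 (0.27), all on chromosome 4, had edgeR adjusted p from 0.0533 to 0.0781.

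Against WT#1, 0 of 60 members were called in MCM2-R#2 with edgeR, where 0.299% of all genes were (DESeq2 called 0, and 10 members had an unadjusted p under 0.05). The members with the lowest p after Zfp951 were Zfp989 (log2 fold change 0.40), Zfp992 (-0.25), Zfp979 (-0.30), Zfp953 (-0.29) and Zfp943 (-0.49), with edgeR adjusted p from 0.0954 to 0.283. Between MCM2-R#2 and MCM2-2A#2 again 0 of 60 were called with edgeR, where 1.36% of all genes were (DESeq2 0, and 12 at an unadjusted p under 0.05), and Zfp984 followed Zfp931 at -0.24 (edgeR adjusted p = 0.053). These comparisons share their samples and are not independent. The sample labels of MCM2-R#2 name a wild-type genotype, and its identity rests on the column names and the sample table of the study. No culture of MCM2-R#2 was in the second sequencing run, which held cultures of both other lines. In a fit that both took the run as a covariate and kept repeat runs of a culture as separate libraries, the count in MCM2-R#2 against WT#1 was 1, which was Zfp951 (log2 fold change 0.61, edgeR adjusted p = 0.0067).

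**Figure D2:**
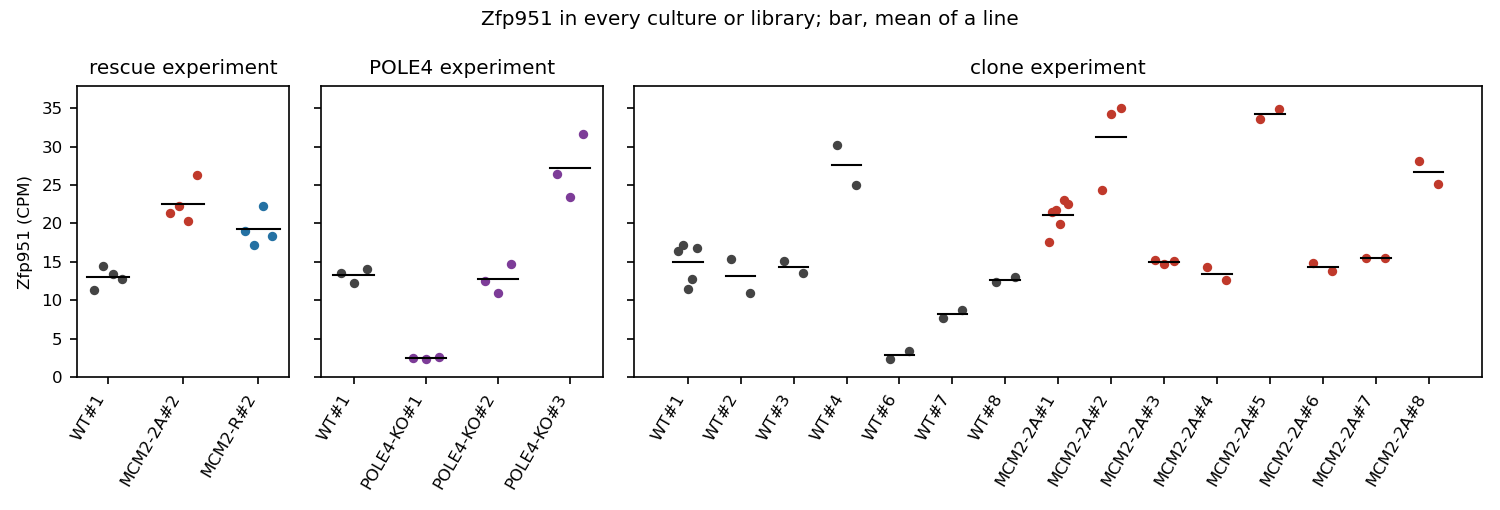
Zfp951 in CPM in every culture of the rescue experiment and every library of the POLE4 and clone experiments, by line, with a bar at the mean of each line. POLE4-KO#1 and WT#6 sit between 2.31 and 3.4 CPM, while POLE4-KO#3, WT#4, MCM2-2A#2, MCM2-2A#5 and MCM2-2A#8 sit above 20 CPM.

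The comparison over clones asked whether the mutation moved these genes in clones made independently. No member was called, and every gene of the chromosome 4 group had a small fold change above 0. With libraries summed per clone and batch (8 WT sums of 7 clones and 9 MCM2-2A sums of 8 clones) and batch as a covariate, edgeR called 0 of 62 members, where 0.616% of all genes were called (DESeq2 called 0, and 13 members had an unadjusted p under 0.05). January held no WT sum, so with batch as a covariate its sums did not bear on the fold changes. MCM2-2A#2 was present in January only, and WT#1 was the only WT clone in March. The median log2 fold change was 0.07 over members and -0.02 over all genes. The 16 genes of that group ran from 0.01 to 0.30 on the log2 scale, with a median of 0.20. The 56 other tested genes inside the group had a median of 0.17, and 0 of those were called. The median was 0.15 for the chromosome 2 group, -0.16 for the chromosome 17 group and -0.06 for dispersed members. Of these 16 genes 8 share 50% or more of their sequence with other genes, so they are not separate measurements. The summed 2-cell-like markers were at 8.62 to 61.9 CPM over the WT sums and at 40.6 to 145 over the MCM2-2A sums, and 3 of 10 primitive endoderm markers and 1 of 9 2-cell-like markers were called higher. The part of these in the values of the members was not tested.

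Zfp991 had the lowest p of the members. It was at 79.0 to 111 CPM over the WT sums (median 95.5) and at 81.2 to 128 over the MCM2-2A sums (median 108), and the groups overlapped. The log2 fold change was 0.27 (SE 0.07, edgeR adjusted p = 0.0314), and 75.6% of its sequence is shared with other genes. Zfp993, Zfp984, Zfp990 and Zfp992, also on chromosome 4, had fold changes from 0.17 to 0.29, and Zfp945 on chromosome 17 one of -0.19. Zfp951 was at 2.89 to 27.6 CPM over the WT sums (median 13.6) and at 13.3 to 34.0 over the MCM2-2A sums (median 20.2). Its log2 fold change over clones was 0.56, with an SE of 0.34 (edgeR adjusted p = 0.37). MCM2-2A#2 was present in January only, so this fit does not measure the difference between WT#1 and MCM2-2A#2.

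The POLE4 experiment asked the same of the other replisome subunit, and here the knockout clones moved apart. Zfp951 fell in POLE4-KO#1, overlapped WT#1 in POLE4-KO#2 and rose in POLE4-KO#3. It was at 13.5, 12.2 and 14.1 CPM in WT#1, at 2.45, 2.31 and 2.66 in POLE4-KO#1, at 12.5, 11 and 14.7 in POLE4-KO#2 and at 26.5, 23.5 and 31.6 in POLE4-KO#3. The libraries of POLE4-KO#1 were all below, and those of POLE4-KO#3 all above, the libraries of the other lines. The log2 fold change against WT#1 was -2.42 (SE 0.15, edgeR adjusted p = 6.85e-09) in POLE4-KO#1, -0.06 (edgeR adjusted p = 0.751) in POLE4-KO#2 and 1.04 (SE 0.13, edgeR adjusted p = 6.98e-05) in POLE4-KO#3. Of the 16 tested genes within 1 Mb of Zfp951, 3 were called in POLE4-KO#1, where 11.6% of all genes were, with a median of -0.08 and values from -2.57 to 0.98, so that the lowest neighbour lay as far below WT#1 as Zfp951. In POLE4-KO#3 0 of 16 were called, with a median of 0.02 and values from -0.41 to 0.93.

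In POLE4-KO#1, 7 of 60 members were called, 3 higher and 4 lower, where 11.6% of all genes were (3.63% higher and 7.97% lower). The genes that fell besides Zfp951 were on chromosome 4. Zfp981 was at 111, 104 and 127 CPM in WT#1 and at 51.2, 44.9 and 51.2 in POLE4-KO#1, below every library of the other lines (log2 fold change -1.21, SE 0.11, edgeR adjusted p = 4.53e-07). Zfp978 was at 45.5, 39.7 and 50.6 CPM in WT#1 and at 22.2, 19.6 and 25 in POLE4-KO#1, again without overlap (log2 fold change -1.02, SE 0.12, edgeR adjusted p = 1e-05). Zfp992 was at 37.6, 32.4 and 46.2 in WT#1 and at 27.0, 17.4 and 26.7 in POLE4-KO#1, also without overlap between the lines (-0.71, SE 0.18, edgeR adjusted p = 0.00726). The genes of the chromosome 4 group moved in both directions. The group's median was -0.29, with 6 of 16 genes above 0 and a highest value of 0.52, and the 32 other tested genes inside it had a median of -0.24, with 1 called lower.

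The members that rose in POLE4-KO#1 were Zfp931 and Zfp971 on chromosome 2 and Zfp994 on chromosome 17. Zfp931 was at 4.38, 3.69 and 4.92 CPM in WT#1 and at 8.63, 7.28 and 9.61 in POLE4-KO#1, without overlap (log2 fold change 0.98, SE 0.17, edgeR adjusted p = 3.52e-04). Zfp971 was at 6.16, 5.50 and 6.66 in WT#1 and at 9.86, 7.81 and 12.3 in POLE4-KO#1 (0.72, SE 0.16, edgeR adjusted p = 0.00356). Zfp994 was at 4.19, 3.42 and 5.07 in WT#1 and at 6.56, 6.30 and 7.81 in POLE4-KO#1 (0.72, SE 0.17, edgeR adjusted p = 0.00489). Neither gene overlapped between the lines. Without library 1 of WT#1, 4 members were called, and Zfp951, Zfp981, Zfp978 and Zfp931 were called under every alternative run. All 10 genes of the chromosome 17 group and all 7 tested genes of the chromosome 2 group had a fold change above 0, with medians of 0.34 and 0.39, and the other genes inside these groups had medians of 0.25 and 0.34. Among the August WT clones of the clone experiment, WT#1 was itself below the others in all 10 genes of the chromosome 2 group (median -0.36).

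In POLE4-KO#2, 11 of 60 members were called, all higher, where 11.6% of all genes were called in either direction and 4.59% higher. They came from several groups, 3 from chromosome 2, 4 from chromosome 4, 1 from chromosome 7, 2 from chromosome 17 and 1 dispersed. Zfp933 was at 5.66, 6.34 and 7.97 CPM in WT#1 and at 11.4, 12.7 and 12.1 in POLE4-KO#2, above every other library (log2 fold change 0.86, SE 0.13, edgeR adjusted p = 9.29e-05). Zfp979 was at 104, 113 and 131 in WT#1 and at 162, 173 and 196 in POLE4-KO#2 (0.61, SE 0.10, edgeR adjusted p = 2.73e-04). Zfp971 was at 10.7, 9.75 and 11.2 CPM in POLE4-KO#2 (0.79, SE 0.16, edgeR adjusted p = 0.00164). For all 3 genes the lines WT#1 and POLE4-KO#2 did not overlap.

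Zfp965 had the largest called fold change in POLE4-KO#2, from a low level. It was at 0.295, 0.115 and 0.338 CPM in WT#1 and at 0.571, 1.13 and 1.37 in POLE4-KO#2 (log2 fold change 2.08, SE 0.44, edgeR adjusted p = 0.00214). Most of its sequence is shared (94.6%), chiefly with Zfp973. The other members called were Zfp984 (0.59), Zfp995 (0.75), Zfp990 (0.64), Zfp976 (0.61), Zfp931 (0.73), Zfp950 (0.60) and Zfp994 (0.67), with edgeR adjusted p from 8.26e-04 to 0.00738. Their libraries in POLE4-KO#2 were above all libraries of WT#1. The count depended on single libraries. It was 6 without library 1 and 4 without library 2 of WT#1, and 3 without library 3 of POLE4-KO#2, and Zfp933, Zfp995 and Zfp971 were called under every alternative run. Group medians were 0.73 on chromosome 2, 0.46 on chromosome 17, 0.37 on chromosome 7, 0.16 on chromosome 4 and 0.02 for dispersed members, against -0.03 over all genes. The other tested genes inside the groups had medians of 0.45 on chromosome 2, 0.40 on chromosome 17 and 0.34 on chromosome 4. The reference, WT#1, was itself low in the chromosome 2 group among the August WT clones.

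In POLE4-KO#3 only Zfp951 of 60 members was called, where 3.01% of all genes were. Zfp995 on chromosome 17 was at 5.42, 7.27 and 6.90 CPM in WT#1 and at 7.64, 9.65 and 10.2 in POLE4-KO#3, above all WT#1 libraries (log2 fold change 0.50). Zfp940 was at 12, 12.9 and 15.2 in WT#1 and at 10.2, 9.61 and 10.7 in POLE4-KO#3, below all of them (-0.39). Zfp981 (0.36) and Zfp978 (0.35), which had fallen in POLE4-KO#1, had edgeR adjusted p of 0.0368 and 0.0598. Of the chromosome 4 group 14 of 16 genes were above 0, with a median of 0.18, and the 32 other genes inside had a median of 0.26.

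**Figure D3:**
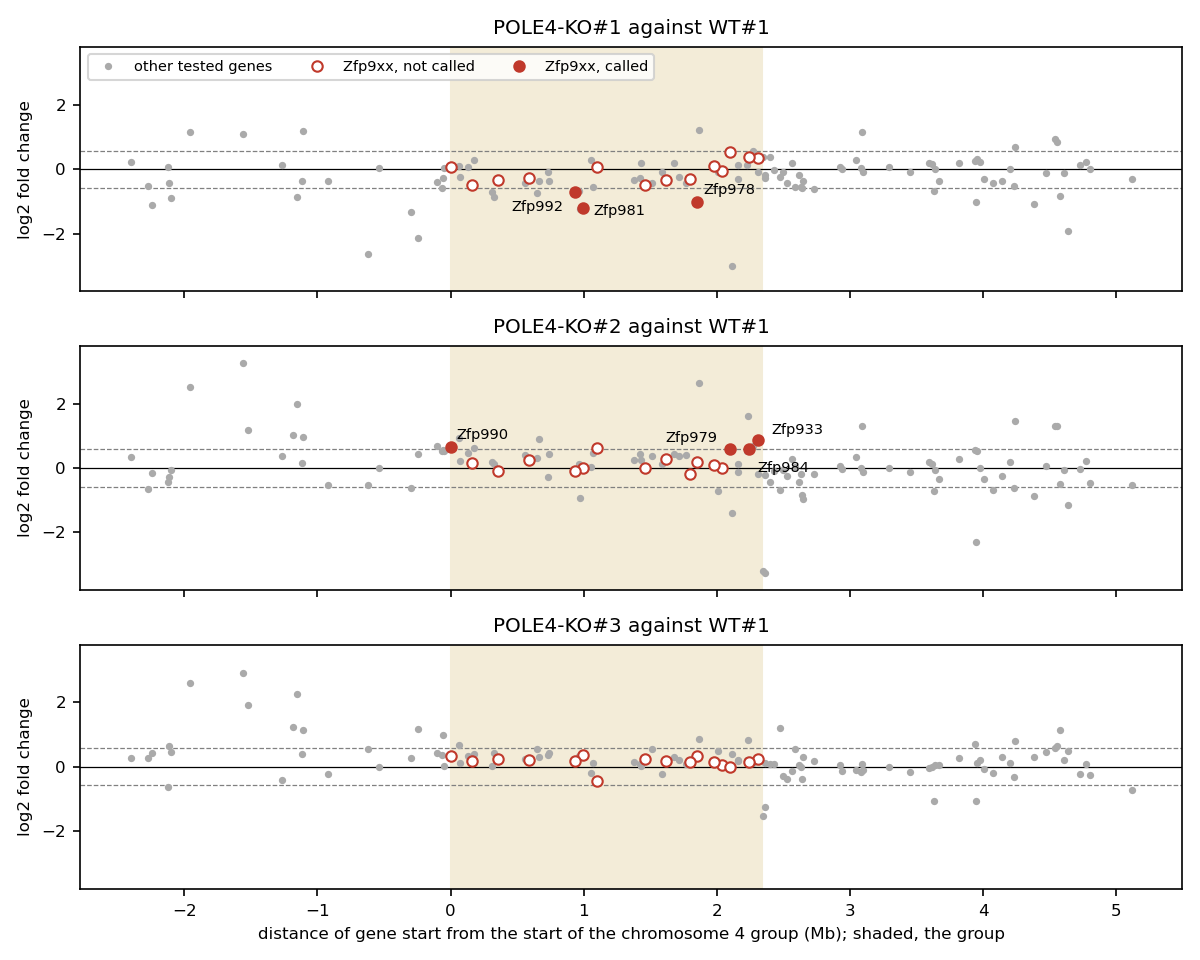
Log2 fold change against WT#1 of the tested genes in and around the chromosome 4 group (shaded), by distance of the gene start from the start of the group in Mb, for the 3 knockout clones. Zfp9xx genes are red (filled where called) and other genes grey, and dashed lines mark 0.58 up and down. In POLE4-KO#1 the called members lie below 0 (Zfp981, -1.21, Zfp978, -1.02, and Zfp992, -0.71), in POLE4-KO#2 they lie above 0 (highest Zfp933, 0.86), and in POLE4-KO#3 none is called.

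Tested directly, 11 of 60 members differed among the 3 knockout clones, where 21.1% of all genes did, and 8 of the 11 were on chromosome 4. Of these 8, Zfp978, Zfp980, Zfp989 and Zfp993 have 54.2% to 78.4% of their sequence in other genes. The 8 are therefore not separate measurements. Zfp951 had a range of 3.46 on the log2 scale between its highest and lowest fitted clone (edgeR adjusted p = 2.34e-10), Zfp981 of 1.57 (edgeR adjusted p = 4.39e-08) and Zfp978 of 1.37 (edgeR adjusted p = 4.44e-07). These 3, with Zfp980, Zfp992 and Zfp989, were lowest in POLE4-KO#1 and highest in POLE4-KO#3. Zfp980 was at 44.6, 41.9 and 48.8 CPM in POLE4-KO#1, at 57.7, 68.7 and 86.4 in POLE4-KO#2 and at 74.9, 63.2 and 79.4 in POLE4-KO#3. POLE4-KO#1 stood below both other clones in Zfp980, which overlapped each other.

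Other members had another order of clones. Zfp948, on chromosome 17 and with no shared run, was at 12.5, 13.3 and 15.0 CPM in POLE4-KO#1, at 7.28, 7.48 and 7.51 in POLE4-KO#2 and at 10.6, 10.2 and 13.0 in POLE4-KO#3, and in WT#1 at 10.0, 9.69 and 11.8. POLE4-KO#2 was below all other lines (range among clones 0.88, edgeR adjusted p = 9.93e-05). Zfp975 on chromosome 7 was at 18.9, 18.7 and 20.2 in POLE4-KO#1 and at 33.8, 31.7 and 36.8 in POLE4-KO#2, with POLE4-KO#3 between them at 31.1, 23.8 and 25.9 (range 0.82, edgeR adjusted p = 2.2e-05). Zfp979 and Zfp933 (0.61 each) and Zfp993 (1.07) were highest in POLE4-KO#2 and lowest in POLE4-KO#3. Zfp979, whose promoter shares runs of sequence with those of Zfp981 and Zfp980, therefore had another order of clones than they did.

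The mean of the 3 knockout clones gave fewer calls than POLE4-KO#1 or POLE4-KO#2 alone. Against WT#1 it called 2 of 60 members, where 5.88% of all genes were called, and the members' median was 0.10, against -0.02 over all genes. These were Zfp971, with a log2 fold change of 0.68 and an SE of 0.14 (edgeR adjusted p = 0.00227), and its neighbour on chromosome 2, Zfp931 (0.68, SE 0.14, edgeR adjusted p = 0.00296). Zfp971 was above WT#1 in every library of every knockout clone, at 7.26 to 12.3 CPM against 5.50 to 6.66. Zfp931 in POLE4-KO#3, at 4.81, 4.83 and 6.41 CPM, overlapped WT#1. WT#1 was the only WT line of this experiment. In the August libraries of the clone experiment it was below the mean of the other WT clones in Zfp971 (log2 difference -0.35) and in Zfp931 (-0.40). The part of this in the calls was not tested. Zfp951 had a mean log2 difference of -0.48 (edgeR adjusted p = 0.00424), under the fold limit, and without POLE4-KO#1 the mean was 0.49 (edgeR adjusted p = 0.00551). Zfp995 (0.56), Zfp933 (0.49) and Zfp979 (0.38) followed. Of single libraries, WT#1 decided the count, which was 0 without its library 1, 1 without its library 2 and 4 without its library 3. It was also 4 without library 1 of POLE4-KO#2. The 3 comparisons of single clones and this one share the WT#1 libraries.

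**Figure D4:**
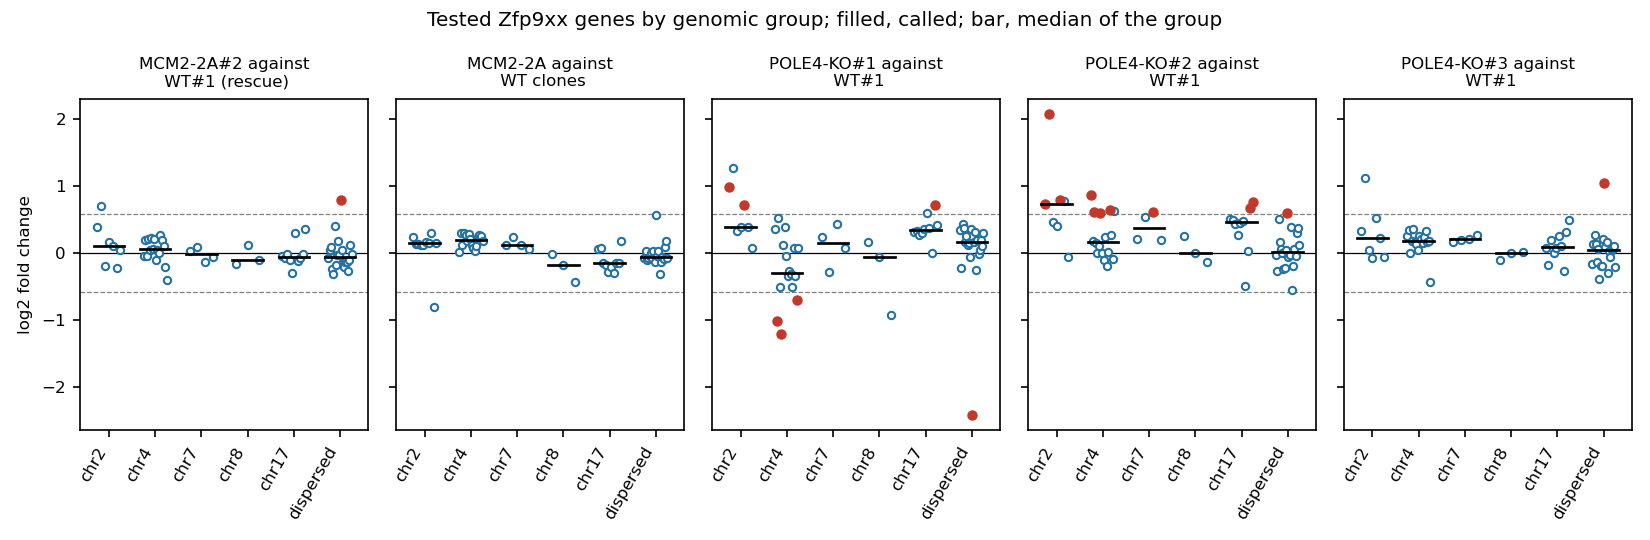
Log2 fold change of each tested Zfp9xx gene, by genomic group, in 5 comparisons, with filled points for called genes, a bar at the median of each group and dashed lines at 0.58 up and down. In POLE4-KO#1 the chromosome 4 median is -0.29 and that of chromosome 2 is 0.39, in POLE4-KO#2 the chromosome 2 and chromosome 17 medians are 0.73 and 0.46, and in both MCM2-2A comparisons the group medians lie within 0.20 of 0.

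Clones of 1 genotype also differed in these genes. Among 7 WT clones sequenced in August, 2 libraries each, 14 of 62 members were called, where 20.4% of all genes were, with 5 on chromosome 4, 4 on chromosome 2, 2 on chromosome 7, 2 on chromosome 17 and 1 dispersed. The study describes the libraries of a clone as biological replicates. Zfp951 was at 2.31 and 3.4 CPM in WT#6, at 7.69 and 8.76 in WT#7, at 12.4 and 13.0 in WT#8, at 15.4 and 10.9 in WT#2, at 15.1 and 13.5 in WT#3, at 16.4 and 17.2 in WT#1 and at 30.2 and 25 in WT#4. WT#6 and WT#7 were below and WT#4 above all other clones, and WT#8, WT#2 and WT#3 overlapped in the middle of the order. The range was 3.27 on the log2 scale (edgeR adjusted p = 3.07e-06), close in size to the range of 3.46 among the POLE4-KO clones, although the difference between these ranges was not tested.

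Zfp948 and Zfp981 came next. Zfp948 was at 12.2 and 11.1 CPM in WT#6 and at 10.5 and 9.42 in WT#4, and lowest at 4.84 and 4.69 in WT#7 (range 1.28, edgeR adjusted p = 1.68e-05). Zfp981 was at 380 and 318 CPM in WT#4, above all other WT libraries, which ran from 176 to 266 (range 0.95, edgeR adjusted p = 2.72e-04). Zfp978, Zfp980 and Zfp977 were also highest in WT#4, at ranges of 0.70, 0.71 and 0.77. Zfp946 was highest in WT#2, at 10.6 and 8.97, and lowest in WT#6, at 4.18 and 4.6, the opposite end of the order from its chromosome 17 neighbour Zfp948. Zfp936, Zfp979 and Zfp982 were highest in WT#6, and Zfp966, Zfp968 and Zfp969 highest in WT#3 and lowest in WT#1. Without WT#1 9 members were called and without WT#4 8. A block for the library number, which could be fitted only without WT#1, gave 10, of which 9 had been called before, and Zfp966, Zfp968, Zfp969 and Zfp979, all lowest in WT#1, were among those lost. Without WT#6 the range of Zfp951 was 1.75 and that of Zfp946 was 0.71, and without WT#4 the ranges of Zfp981, Zfp978 and Zfp980 were 0.49, 0.38 and 0.36, of which those of Zfp946, Zfp981, Zfp978 and Zfp980 were no longer called.

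Among 5 MCM2-2A clones of the same batch 3 of 62 members were called, where 14.4% of all genes were. They were Zfp951, Zfp981 and Zfp948, which had also been called among the WT clones. Zfp951 was at 33.6 and 34.9 CPM in MCM2-2A#5, at 28.2 and 25.1 in MCM2-2A#8, and at 12.6 to 15.5 in MCM2-2A#4, MCM2-2A#6 and MCM2-2A#7. MCM2-2A#5 and MCM2-2A#8 were apart from each other and from the other clones, which overlapped (range 1.35, edgeR adjusted p = 2.7e-07). Zfp981 was at 368 and 398 CPM in MCM2-2A#5 and at 243 to 303 in the other clones, without overlap (range 0.63, edgeR adjusted p = 0.00102). Zfp948 was highest in MCM2-2A#8, at 9.97 and 8.14, and lowest in MCM2-2A#7, at 4.89 and 4.6 (range 0.91, edgeR adjusted p = 0.0023). Without MCM2-2A#5 the range of Zfp981 was 0.17. Zfp975 (0.53), Zfp965 (0.46) and Zfp961 (0.42) had edgeR adjusted p from 6.73e-04 to 0.00457 and stayed under the limit on the range.

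In several clones every gene of the chromosome 2 group lay on the same side of the other clones. All 10 were below the mean of the other WT clones in WT#1, with a median of -0.36, and all 10 were above it in WT#3, with a median of 0.24. In MCM2-2A#5 0 of 10 were above the mean of the other MCM2-2A clones (median -0.29), and in MCM2-2A#6 all 10 were (0.18). Of the other WT clones, WT#7 and WT#8 each had 9 of 10 above, WT#6 had 3 of 10, and WT#2 and WT#4 each had 1 of 10. MCM2-2A#4 and MCM2-2A#7 each had 7 of 10 above, and MCM2-2A#8 had 5 of 10. Each clone is set against the mean of the others, so these deviations depend on each other. No test of joint movement was run. On chromosome 4, 1 of 16 genes was above the mean of the other clones in WT#2 (-0.27), 14 of 16 in WT#3 (0.14) and 12 of 16 in WT#4 (0.20). Over all genes these medians lay between -0.03 and 0.01 in every clone. The 10 chromosome 2 genes include 6 with 75.8% or more of their sequence in other genes, so a change of 1 copy can appear in several.

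**Figure D5:**
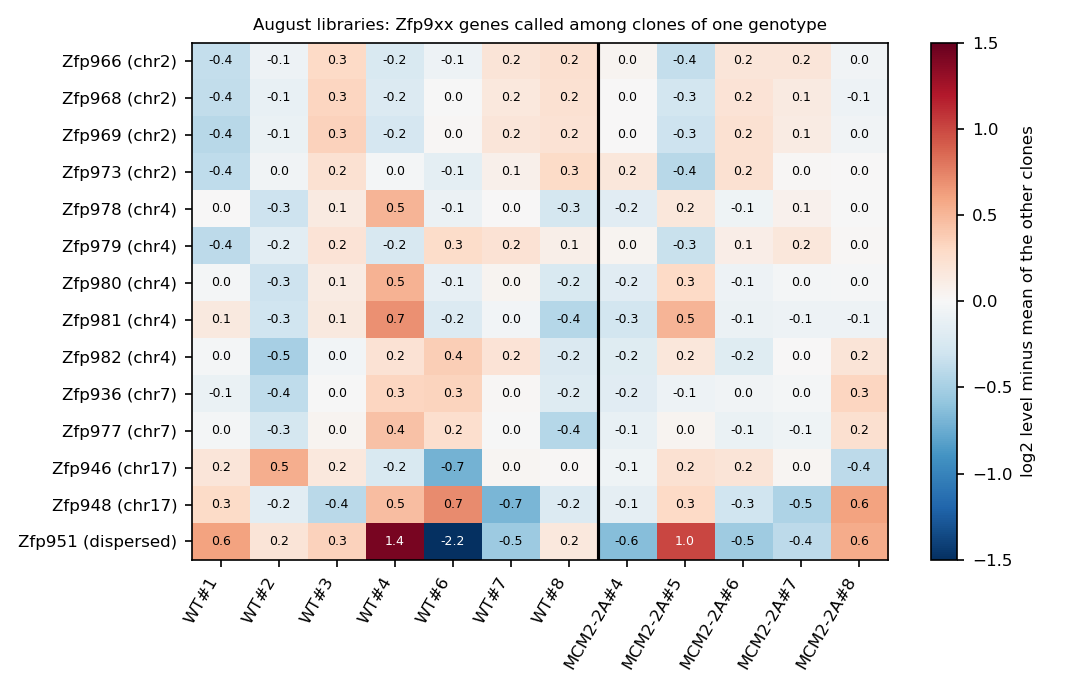
Level of the 14 Zfp9xx genes called among August WT or August MCM2-2A clones, as the log2 level in a clone minus the mean of the other clones of its genotype, from blue (lower) to red (higher), with the value printed in each cell. Zfp951 in the bottom row runs from -2.2 in WT#6 to 1.4 in WT#4, and the chromosome 2 genes in the top rows are all lower in WT#1 and in MCM2-2A#5.

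Zfp951, Zfp981 and Zfp978 were low in POLE4-KO#1, and of these only Zfp951 was far below the other WT clones in WT#6. The log2 level in WT#6 minus the mean of the other August WT clones was -2.17 for Zfp951, -0.21 for Zfp981 and -0.09 for Zfp978. POLE4-KO#1 and WT#6, each set against WT#1 of its own experiment, were alike over genes in general. The Spearman correlation of their log2 differences was 0.569 over 16207 genes and 0.482 over 59 members. The cause of the low Zfp951 in either clone was not tested. Zfp932 was not called in any comparison. It was at 12.5, 15.6 and 18.4 CPM in WT#1 of the POLE4 experiment and at 20.8, 22.1 and 16.3 in POLE4-KO#1, which overlapped (log2 fold change 0.35, edgeR adjusted p = 0.0802), and its range among August WT clones was 0.32 (edgeR adjusted p = 0.466).

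Among the 299 other Zfp genes, 21 of 284 tested were called in POLE4-KO#1 (7.39%, 8 higher and 13 lower), against 7 of 60 members (11.7%, 3 higher and 4 lower). In POLE4-KO#2 22 of 284 were called (7.75%, 12 higher and 10 lower), against 11 of 60 members (18.3%, all higher). Over all genes 11.6% were called in each of these clones, with 3.63% higher in POLE4-KO#1 and 4.59% higher in POLE4-KO#2. The difference between members and other Zfp genes was not tested. In POLE4-KO#3 2 of the other Zfp genes were called and in the mean of the clones 10, and in MCM2-2A#2 1 of 285 and over the clones 2 of 287. Among the KO clones 41 of 284 (14.4%) were called and among August WT clones 50 of 284 (17.6%), against 11 of 60 (18.3%) and 14 of 62 (22.6%) of the members. The shares over all genes were 21.1% and 20.4%. Among August MCM2-2A clones 29 of 284 (10.2%) were called, against 3 of 62 members (4.84%) and 14.4% of all genes. Of 19 genes of the KRAB repression machinery 0 were called with edgeR in MCM2-2A#2 or MCM2-R#2 against WT#1, between these lines, or over the MCM2-2A and WT clones. From 0.299% to 2.76% of all genes were called in these comparisons. In the POLE4 experiment Chd3, a remodeller of the complex that TRIM28 recruits, fell in POLE4-KO#1 (log2 fold change -1.37, SE 0.11, edgeR adjusted p = 1.12e-07). Mphosph8, a subunit of the HUSH silencing complex, fell in POLE4-KO#2 (-0.85, SE 0.11, edgeR adjusted p = 2.12e-05). In each of these clones 1 of the 19 was called (5.26%), where 11.6% of all genes were. Chd3 and Mphosph8 were also called among the August WT and the August MCM2-2A clones, while Trim28 and Setdb1 were called in no comparison. Of 9 KRAB zinc finger genes with known targets, Zfp600, which lies in the chromosome 4 group, fell in POLE4-KO#1 (-0.75, edgeR adjusted p = 1.22e-04), and Zfp809, which represses the murine leukaemia virus class, rose in POLE4-KO#2 (0.64, edgeR adjusted p = 2.1e-04). This was 1 of 9 in each clone (11.1%), close to the share of 11.6% over all genes.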

How the data were processed

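Raw counts for 55335 genes and 1146 repeat subfamilies were deposited by the authors, with 1 table per experiment. Per the labels and the methods, strand-specific paired-end reads of rRNA-depleted total RNA were trimmed with Trimmomatic 0.39, aligned to mm10 with STAR 2.7.1a and counted with featureCounts. How reads with several placements were counted is not given in the sources used here. Counts were used as deposited. 3 columns of the clone table were tied to no sample and were not used, and WT#5 was not analysed here.

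Library sizes were the totals over gene rows, scaled by TMM factors from gene rows, and CPM use these sizes. Technical runs of a rescue culture were summed, as were the libraries of a clone within a batch in the clone experiment. edgeR 4.0.16 in R 4.3.3 (glmQLFit, glmQLFTest) was fitted to all features that passed filterByExpr (min.count 10, min.total.count 15), with Benjamini-Hochberg adjustment over gene rows. Differences among clones were tested with 1 F test over all clones, and the fold limit of 0.58 was put on the range of the fitted clones. DESeq2 1.42.0 was an alternative, besides RLE factors, no filter, single runs or libraries, a replicate block and leaving out each library, culture or clone in turn. On simulated data for the rescue comparison of MCM2-2A#2 with WT#1 (16844 genes tested), 78.3% of genes changed by 1 on the log2 scale were called and 1 unchanged gene was. For the POLE4-KO#1 comparison the share was 73.7%, for the clone comparison 60.8% and for the August WT clones 46.2%. In these 2, 0 and 7 unchanged genes were called. The simulated libraries were independent of each other, and log2 changes under 1 were not simulated. The study describes the replicates as biological. Since each line is a single clone, p-values of the rescue, POLE4 and August comparisons measure the spread between cultures or libraries of a clone. In the comparison of MCM2-2A with WT clones they measure the spread between the sums, mostly of different clones. In the POLE4 experiment the numbers of the knockout libraries pair them: correlations of deviations from the line mean were 0.161 to 0.346 for all 9 pairs of like number and -0.211 to 0 for the 18 others. The WT#1 columns carry no matching number, so no block was possible there.

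Members and lists were chosen with earlier results of these data known. Genes were named by 1 rule: in each comparison the members called, at most 12 in order of p, or the 6 with the lowest p where fewer than 6 were called. The 5 members highest per kb in WT#1, the highest of each group and Zfp932 were added, and Zfp967, Zfp973, Zfp982 and Zfp987 were named in addition after their values were seen. Any other member was named only for its annotation, exon overlap or shared sequence, or because it was not tested. Symbols and positions come from GENCODE vM21, which names 55154 of the gene rows. Exons of 12 members overlap those of other genes, by over 5% in 9. For Zfp935 (100%), Zfp963 (40.8%), Zfp984 (9.7%) and Zfp973 (9.3%) the counting of the overlapping part is uncertain. Protein sequences were not used here.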

Additional observations from a re-analysis of the deposited data

Results flagged for a closer look

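In 3 of 57 groups of 4 to 10 samples the highest or lowest sample stood far from the others, a share that chance gives in about 1 of 20 groups. Zfp992 was at 33.9 CPM in culture 3 of MCM2-2A#2 in the rescue experiment, against 29.6 to 30.3 in the other cultures. This culture was sequenced in the second run alone and was also highest in other chromosome 4 genes, among them Zfp985 (93.1 CPM, against 63.4 to 67.8) and Zfp990 (189, against 147 to 156). In the August MCM2-2A clones, MCM2-2A#5 had the highest Zfp981, with a mean of 383 CPM, and the lowest Zfp961, with a mean of 82.5 CPM.

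The 3 POLE4-KO clones, each set against the same WT#1 libraries, differed from each other in 11 members by an edgeR F test among clones. The log2 ranges between the highest and lowest clone were 3.46 for Zfp951, 1.57 for Zfp981, 1.37 for Zfp978, 1.07 for Zfp993, 0.88 for Zfp948 and for Zfp992, 0.82 for Zfp975, 0.74 for Zfp989, 0.68 for Zfp980, and 0.61 for Zfp979 and for Zfp933. The edgeR adjusted p of Zfp993, a low gene with 78.4% shared sequence, was 0.0053, and those of the other 10 were lower. Genotype and clone cannot be told apart in any single knockout clone.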

How the results depend on the processing

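Zfp951 was called under every alternative in each comparison that called it, as were Zfp981, Zfp978 and Zfp931 in POLE4-KO#1 and Zfp933, Zfp995 and Zfp971 in POLE4-KO#2. Of the values of named genes under alternatives, 931 stayed on the same side of the limits, 80 lost a call, 7 gained one and 1 changed sign: Zfp951 in the mean of the knockout clones, at 0.49 without POLE4-KO#1, an alternative chosen after seeing the data. With the sequencing run as a covariate and single libraries as units, changed together, 1 member was called between MCM2-R#2 and WT#1. Leaving out 1 culture, library or clone gave 1 to 1 members called for MCM2-2A#2 against WT#1, 0 to 0 for MCM2-R#2 against WT#1, 0 to 1 for MCM2-R#2 against MCM2-2A#2 (1 without culture 2 of MCM2-2A#2), 0 to 0 over the clones, 0 to 4 for the mean of the knockout clones, 4 to 7 for POLE4-KO#1, 3 to 11 for POLE4-KO#2, 1 to 1 for POLE4-KO#3, 8 to 12 among knockout clones, 8 to 14 among August WT clones and 2 to 3 among August MCM2-2A clones. These losses include fits with fewer samples. The replicate block of the paired knockout clones called 15 members, among them all 11. In the rescue experiment the numbers do not pair cultures (correlations from -0.118 to 0.404 for like numbers), and a replicate block left the counts at 1, 0 and 0. In the August libraries a block, fitted without WT#1, gave 10 among WT clones, 9 of them called without it, and 4 among MCM2-2A clones. Counts over all genes moved by more than 1.5 times in some fits: for MCM2-2A#2 against WT#1 from 470 to 792 without a filter and 747 with the run and single libraries, for MCM2-R#2 against WT#1 from 51 to 78 with DESeq2 and 87 without a filter, for MCM2-R#2 against MCM2-2A#2 from 231 to 404 with DESeq2, 584 without a filter and 383 with the run and single libraries, over the clones from 143 to 524 with DESeq2, 999 with single libraries, 40 in August only and 9 without WT#1 and MCM2-2A#2, for POLE4-KO#3 from 505 to 847 without a filter, and among August MCM2-2A clones from 2815 to 4240 without a filter. The causes were not tested. A gap of 0.5 Mb between genes left 41 members in groups, and one of 2 Mb 43. Zfp965 had 3 to 7 counts per library in WT#1 of the POLE4 table, which limits the precision of its fold change.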
